A study of Mus musculus with 14 samples.

Results

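The genes described here are 10 ligands and receptors of the vascular endothelial growth factor (VEGF) and angiopoietin families, measured in mouse melanomas after transfer of tumour-specific T cells: Vegfa, Vegfc, Pgf, Angpt2, Kdr, Flt1, Flt4, Nrp1, Tek and Tie1. They were chosen by name, as all non-control array probes that carried one of these gene names, and they take up 20 of 41174 probes and 10 of 28478 genes on the array. Of these, 9 members were bright enough to be tested, together with all other such genes, 17031 in all. The probe for Tie1 stayed at background on all 14 arrays, so no value of Tie1 is interpreted.

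B16F10 melanoma cells were grown in C57BL/6 mice, and whole tumours were profiled on single-colour Agilent arrays, 1 array for each arm and day. In the CTL arm, mice bearing tumours received CD90.1+ cytotoxic T lymphocytes (CTLs) specific for gp100, a melanocyte antigen that B16 cells carry, which had been activated in culture. Tumours of this arm and of untreated mice were collected 1, 3, 5 and 7 days after transfer. In 2 further arms, mice that received CTLs were also injected on days 0 and 2 with an antibody that blocks interferon gamma (anti-IFNg) or with control rat IgG, and tumours were collected on days 3, 5 and 7. Each array holds the pooled RNA of 4 tumours (CTL and untreated arms) or 3 tumours (both antibody arms), so differences between single mice are not seen. The labels give no genetic change of the hosts and no age or sex of the mice. No arm received an antibody without CTLs.

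VEGF-A binds the receptor tyrosine kinases VEGFR1 (Flt1) and VEGFR2 (Kdr) on endothelial cells, and VEGFR2 carries most of its signal for endothelial growth, migration and permeability. Of these receptor kinases, placental growth factor (Pgf) binds VEGFR1 alone. VEGF-C acts mainly through VEGFR3 (Flt4), and neuropilin-1 (Nrp1) is a co-receptor. The angiopoietins bind Tie2 (Tek), which Tie1 modulates, and angiopoietin-2 (Angpt2), stored and released by endothelial cells, often acts as a context-dependent antagonist that loosens vessels and lets them remodel. VEGF-A is made by many cell types and is induced by low oxygen, whereas Kdr, Tek and Tie1 are best known from the endothelium. All levels below are log2 signal minus the 75th percentile of the array, so a level of 0 is the brightness that the brightest 25% of spots exceed, and levels are compared only within a probe. In bulk tumour RNA, fewer cells of a type and less RNA per cell cannot be told apart.

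Across the 14 arrays, 48.9% to 59.7% of spots rose clearly over background by the scanner software's test, called well above background here, and the 75th percentile was a processed signal of 301 to 536. The CTL array of day 5 stood apart: it had the lowest share of such spots, and its dimmest signal well above background lay at -3.21, against -4.65 to -3.92 on the other 13. Differences of the members between CTL and untreated tumours, and the counts of the related gene lists, are therefore given without it too where that ended a call or moved a value by over 1.5 times. Melanocyte genes marked the tissue on every array, and none of the 7 measured passed the test in any comparison of arms. All 8 measured T cell genes were higher in the CTL arm than in untreated tumours (limma, adjusted p under 0.05, and 6 of the 8 without the CTL array of day 5). Of all genes, 10.1% were called higher there. Cd3g and Cd8a stayed at background in untreated tumours on days 3, 5 and 7. They were bright enough to be tested only through the arms that received CTLs, so no weight is put on their calls. Each day had a slide of its own. An arm always took the same place on its slide, and these 2 factors cannot be told apart.

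Angpt2 and Kdr passed the test in 3 comparisons each. Both fell in tumours of CTL-treated mice, with or without control IgG, and both were higher with anti-IFNg than with control IgG. Neither call of anti-IFNg against IgG was kept with all 14 arrays (limma adjusted p 0.0652 for Angpt2 and 0.0552 for Kdr). Kdr was not well above background on any IgG array and could be tested only through the other arms. Its calls against the IgG arm thus rest on fitted values. Angpt2 was 1.91-fold lower in the CTL arm than in untreated tumours and Kdr 1.95-fold lower, though the Kdr difference turned to 0.18 (log2) with another background correction. Flt1 fell in the IgG arm alone among the comparisons tested, a call that most alternatives ended. None of Vegfa, Vegfc, Pgf, Flt4, Nrp1 or Tek passed the test in any comparison with the probe used. Differences are means over days 3, 5 and 7, with the standard error (SE) of a limma model in which the 12 arrays of those days share an estimate of the spread, and the p-values are adjusted over all 17031 genes. Since no arm and day was repeated, the error measures how same-day differences vary over the 3 days.

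Counted over the members, 2 of 9 passed for CTL against untreated tumours, both lower, in a comparison where 31.5% of all genes passed, 10.1% higher and 21.4% lower. With IgG against untreated tumours 3 of 9 passed, all lower, where 18.6% of genes passed, 7.47% higher and 11.2% lower. With anti-IFNg against untreated tumours 0 of 9 passed in limma (2 of 9, Angpt2 and Kdr, had an unadjusted p under 0.05), where 0.159% of genes passed. With anti-IFNg against IgG 2 of 9 passed, both higher, where 12.5% of genes passed, 6.61% higher and 5.93% lower. With all 14 arrays, 10.7%, 10% and 0.0117% of genes passed in the 3 comparisons that called members. The members' counts lie at or below the share of genes called in the CTL comparison and above it in the others that called members, and with so few genes they are a description. The counts for IgG against untreated tumours and for anti-IFNg against IgG include Kdr, which was at background in the IgG arm. The median difference of the 9 members was 0.05, -0.25, -0.34 and -0.10 in these 4 comparisons, against -0.10, -0.10, -0.03 and 0.06 for all genes. The comparisons share arms, so their counts are not independent.

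By the ranges of the 3 days, Angpt2 and Kdr lay wholly below untreated tumours in the CTL arm, as 28.5% of genes did, and Flt4 wholly above, as 12.3% did. With IgG, Angpt2 and Kdr lay wholly below (21.3% of genes). With anti-IFNg, Angpt2 alone of the members did (6.17%). Against IgG, Angpt2 and Kdr lay wholly above (21.3%) and Nrp1 wholly below (14.9%).

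**Figure D1:**
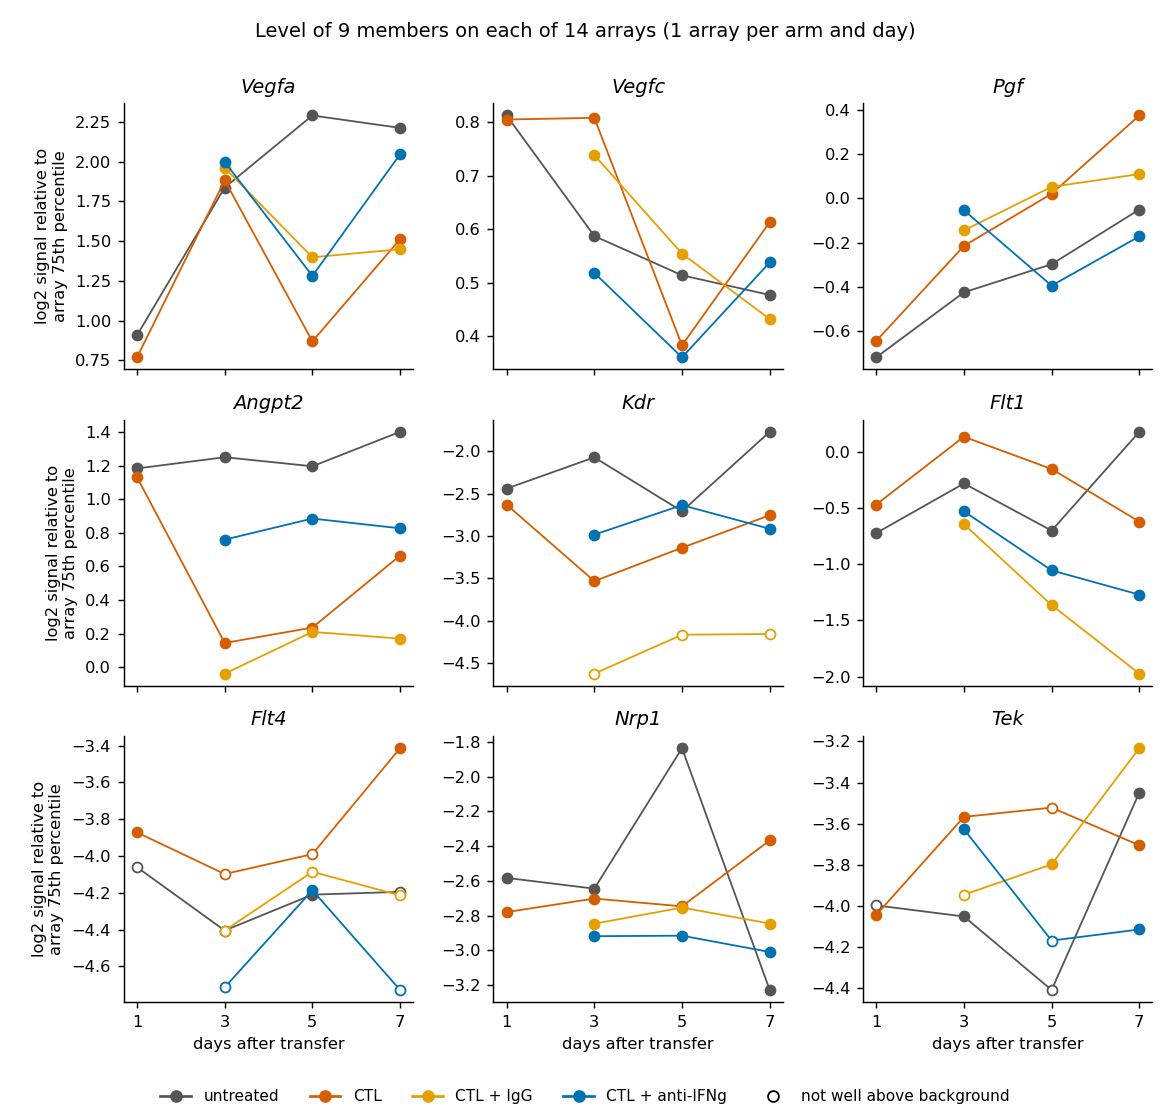
Level of 9 members on each of the 14 arrays (y axis, log2 signal relative to the 75th percentile of the array, scaled for each gene) against days after transfer (x axis), with 1 point per array, 1 colour per arm, and open points where the probe was not well above background. Angpt2 was at 1.13 and 1.18 in both arms on day 1 and was at or below 0.66 on all later arrays of the CTL and IgG arms. All 3 Kdr points of the IgG arm are open.

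Among the ligands, Vegfa, the main driver of vessel growth, stood at 0.91, 1.84, 2.29 and 2.21 in untreated tumours on days 1, 3, 5 and 7. In the CTL arm it stood at 0.77, 1.88, 0.87 and 1.51. It was at 1.96, 1.40 and 1.45 with IgG and at 2.00, 1.28 and 2.05 with anti-IFNg on days 3, 5 and 7. The arms lay close together on days 1 and 3, and on days 5 and 7 every CTL-treated array was below the untreated array of its day. Over days 3, 5 and 7 the arms overlapped. The difference of the CTL arm from untreated tumours was -0.69 ± 0.26 (SE, 3 days), with a limma adjusted p of 0.0744, and without the CTL array of day 5 it was -0.50 ± 0.29 (adjusted p 0.249). With IgG it was -0.51 ± 0.26 (adjusted p 0.214) and with anti-IFNg -0.34 ± 0.26 (adjusted p 0.909). Anti-IFNg against IgG gave 0.17 ± 0.26 (adjusted p 0.686). Vegfa therefore passed in no comparison, although with another background correction (normexp, which models background rather than subtracting it) the CTL difference was -0.85 ± 0.24, with an adjusted p of 0.0287.

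The probe used for Vegfa, A_51_P482552 (mm8, chr17:45482144-45482203, minus strand), was printed 10 times on each array, which gives a measure of its technical error. The standard deviation (SD) over its usable spots, 8 to 10 per array, ran from 0.020 to 0.098. Over the 3 days, the SD of the CTL difference was 0.733, far more than that between spots of an array. Of its 2 other probes, A_52_P638895 gave -0.56 for the CTL arm against untreated tumours, with an adjusted p of 0.0346 when every probe was tested separately, a test that 28.7% of 24501 probes passed. The remaining probe, A_52_P249424, gave 0.08 (adjusted p 0.781). Of the 3 Vegfa probes, 1 thus passed for the CTL arm.

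**Figure D2:**
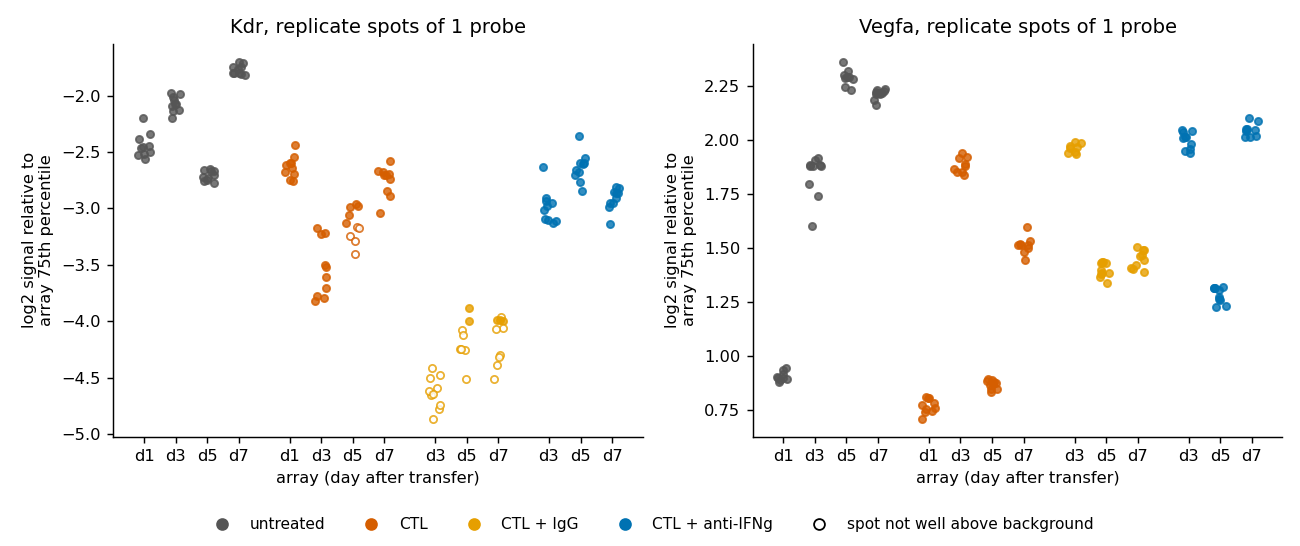
Replicate spots of the Kdr probe A_51_P316553 (left) and the Vegfa probe A_51_P482552 (right), with the array on the x axis by arm and day and the log2 signal relative to the 75th percentile on the y axis; each point is a spot and open points are spots not well above background. The 3 IgG arrays lie lowest for Kdr, with 5 of their 28 spots filled, while the 8 to 10 Vegfa spots of an array lie close together.

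Vegfc, a growth factor of lymphatic vessels, varied least of the 9 members: it ranged from 0.36 to 0.81 over all 14 arrays. Its differences lay between -0.10 and 0.08 in the 5 comparisons of arms, each with an SE of 0.11, and none passed (lowest limma adjusted p 0.545). The CTL difference was 0.08, and 0.16 without the CTL array of day 5. Pgf, the ligand of VEGFR1, was at -0.72, -0.42, -0.30 and -0.05 in untreated tumours and at -0.64, -0.21, 0.02 and 0.37 in the CTL arm on days 1, 3, 5 and 7. It was at -0.14, 0.05 and 0.11 with IgG and at -0.05, -0.39 and -0.17 with anti-IFNg. In both 4-day courses each later array was higher, and the CTL array was above the untreated array on all 4 days, yet the arms overlapped. The difference was 0.32 ± 0.14 in the CTL arm (limma adjusted p 0.119) and 0.26 ± 0.14 with IgG (adjusted p 0.239).

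Angpt2, the context-dependent Tie2 ligand, was steady in untreated tumours, at 1.18, 1.25, 1.20 and 1.40 on days 1, 3, 5 and 7. In the CTL arm it was at 1.13, 0.15, 0.24 and 0.66 on the same days. With IgG it was at -0.04, 0.21 and 0.17, and with anti-IFNg at 0.76, 0.89 and 0.83, on days 3, 5 and 7. The untreated arrays were the highest of every day, the anti-IFNg arrays came next, and from day 3 neither overlapped with the other or with the IgG arrays. The CTL and IgG arrays overlapped with each other. Its probe, A_51_P201982 (mm8, chr8:18691435-18691494, minus strand), was well above background on all 14 arrays.

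From these values, Angpt2 fell by 0.93 ± 0.12 in the CTL arm (limma adjusted p 0.00153). It fell by 1.17 ± 0.12, or 2.25-fold, in the IgG arm (adjusted p 0.000689), a call kept in all 13 alternatives tried. With anti-IFNg the difference from untreated tumours was -0.46 ± 0.12, which did not pass (adjusted p 0.417) in a comparison that 0.159% of genes passed. Against IgG, anti-IFNg tumours were 0.71 ± 0.12 higher, or 1.63-fold (adjusted p 0.00898), and higher on each of the 3 days, by 0.80, 0.67 and 0.66. The CTL call was kept with all 14 arrays (-0.71, adjusted p 0.042) and without the CTL array of day 5 (-0.87, adjusted p 0.00942), and it was lost without day 3 (adjusted p 0.056), without day 5 (0.054) and when only these 2 arms were fitted (0.0518). The call of anti-IFNg against IgG was lost with all 14 arrays (adjusted p 0.0652), without day 3 (0.137) and without day 5 (0.152), always at a similar difference.

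Kdr, the main signalling receptor of VEGF-A, was at -2.44, -2.07, -2.71 and -1.77 in untreated tumours on days 1, 3, 5 and 7. In the CTL arm it was at -2.63, -3.53, -3.14 and -2.75. With IgG it was at -4.63, -4.17 and -4.16, and with anti-IFNg at -2.98, -2.64 and -2.92, on days 3, 5 and 7. From day 3, all CTL arrays lay below all untreated arrays, and the IgG arrays lay below every other array. The anti-IFNg arrays overlapped with both the untreated and the CTL arrays. Its probe, A_51_P316553 (mm8, chr5:76214981-76215040, minus strand), was not well above background on any IgG array.

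Kdr fell by 0.96 ± 0.24 in the CTL arm (limma adjusted p 0.0205). In the IgG arm the fitted difference from untreated tumours was -2.13 ± 0.24 (adjusted p 0.000982). The probe passed the filter through the other arms. This p-value and that of anti-IFNg against IgG are therefore of fitted values and do not test a measured level in the IgG arm. Because Kdr was not well above background there, the fold is a lower bound, taken against the dimmest signal well above background of each array or the signal of the probe, whichever is higher: Kdr was at least 3.63-fold lower with IgG. It was at least 2.29-fold higher with anti-IFNg than with IgG, at a fitted difference of 1.47 ± 0.24 (adjusted p 0.00809), and was higher on each day, by 1.64, 1.53 and 1.24. With anti-IFNg against untreated tumours the difference was -0.66 ± 0.24 (adjusted p 0.626).

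The Kdr calls depended on the processing. With normexp correction the CTL difference turned to 0.18, the IgG difference was -0.82 (limma adjusted p 0.12) and the difference of anti-IFNg from IgG 0.44 (0.574), so no Kdr call held under it. The CTL call was also lost with all 14 arrays (-0.77, adjusted p 0.0563), without day 3 (0.199), without day 7 (0.0714), without the CTL array of day 5 (0.0593) and with 2 arms (0.0985). The call of anti-IFNg against IgG was lost with all 14 arrays (0.0552), without day 3 (0.101) and without day 5 (0.0779). The IgG call against untreated tumours was kept in the 11 other alternatives, among them all 14 arrays (-2.04, adjusted p 0.0282).

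The 10 spots of the Kdr probe show how near the IgG values are to background. The SD over spots of an array ran from 0.042 to 0.252, with a median of 0.133. On the IgG arrays 0 of 10, 2 of 8 and 3 of 10 usable spots were well above background on days 3, 5 and 7. On the CTL array of day 5 it was 5 of 10, and on the other 10 arrays all 10 spots were. No spot of the IgG arm was as bright as the dimmest spot of the anti-IFNg arm, -3.14. The other Kdr probe, A_52_P478193, stayed at background on all 14 arrays.

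**Figure D3:**
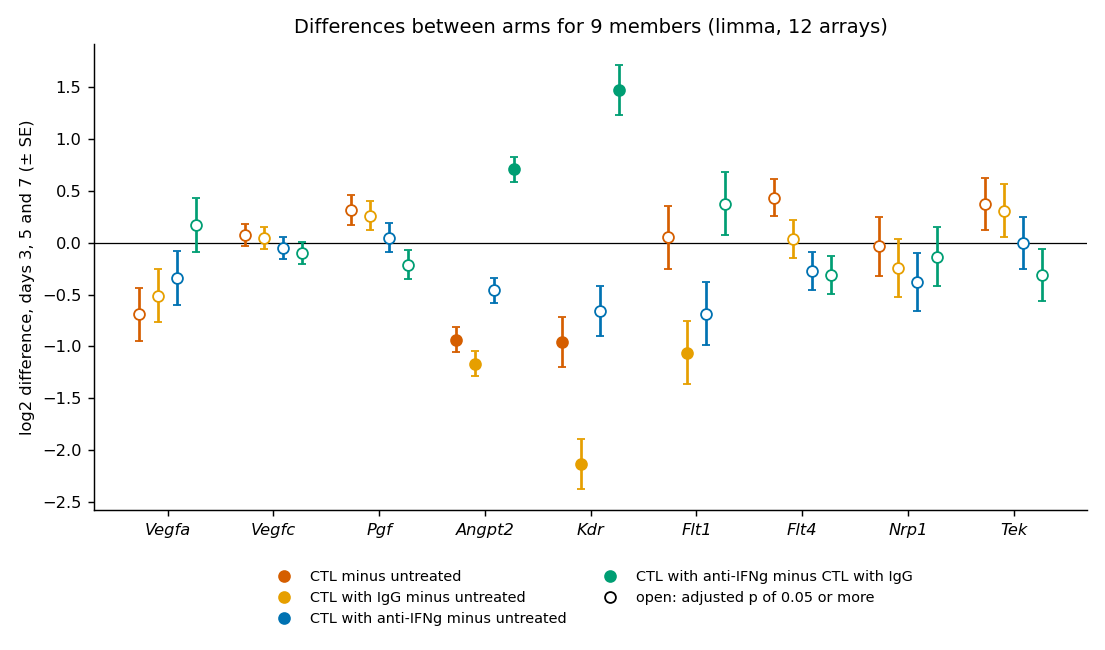
Difference between arms over days 3, 5 and 7 (y axis, log2) for 9 members (x axis), as points with bars of ± 1 SE from the limma fit of 12 arrays; filled points had an adjusted p under 0.05. The filled points are Angpt2 and Kdr in 3 comparisons each and Flt1 in the IgG arm. The Kdr point of the CTL arm turns to 0.18 with normexp correction, and the Kdr points that involve the IgG arm rest on values at background.

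Flt1, the VEGFR1 gene, was at -0.72, -0.28, -0.70 and 0.18 in untreated tumours on days 1, 3, 5 and 7, and at -0.47, 0.14, -0.15 and -0.62 in the CTL arm. With IgG it was at -0.64, -1.36 and -1.97, and with anti-IFNg at -0.53, -1.05 and -1.27. In both antibody arms each later array was lower, and the IgG arrays lay below all CTL arrays. The IgG and untreated arrays overlapped. Flt1 fell by 1.06 ± 0.30, or 2.08-fold, in the IgG arm (limma adjusted p 0.0457), to which days 3, 5 and 7 gave -0.36, -0.66 and -2.15. This call was lost in 9 of 13 alternatives. Without day 7 the difference was -0.51 (adjusted p 0.0711). In the CTL arm the difference was 0.05 ± 0.30 (adjusted p 0.902), and anti-IFNg against IgG gave 0.38 ± 0.30 (adjusted p 0.437).

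Flt1 has 2 other probes that passed the filter on dim signal, and they gave larger differences in the IgG arm. A_52_P307922 gave -1.57 (adjusted p 0.00284, tested probe by probe, where 16.9% of probes passed). A_52_P520859 gave -1.67, given with no test. A_52_P307922 (mm8, chr5:147948554-147948613) also gave 1.03 for anti-IFNg against IgG (adjusted p 0.0234), where 11.2% of probes passed, with 1.37, 0.75 and 0.98 on days 3, 5 and 7. For that comparison A_52_P520859 gave 0.90, also with no test. The probe of the fit, A_51_P398723 (chr5:147872564-147872623), and A_52_P520859 (chr5:147872637-147872696) are neighbours, whereas A_52_P307922 lies farther along the chromosome. Exon and UTR positions of the probes were not analysed here. A_52_P307922 was not well above background on the IgG arrays of days 5 and 7, so its adjusted p-values rest in part on fitted values at background. A_52_P520859 was not well above background on any IgG array, so it passed the filter through the other arms. Its IgG differences are therefore fitted values and no measured folds, and no test of them is given.

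Flt4, the VEGF-C receptor, was well above background on 4 of 14 arrays and had the values -4.06, -4.41, -4.21 and -4.20 in untreated tumours against -3.87, -4.10, -3.99 and -3.41 in the CTL arm. The CTL array was above the untreated array on all 4 days, and the arms did not overlap from day 3. The difference of 0.44 ± 0.18 did not pass (limma adjusted p 0.101). Without the CTL array of day 5 it was 0.61 ± 0.18 (adjusted p 0.0597). IgG and anti-IFNg arrays ranged from -4.73 to -4.09.

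Nrp1, the co-receptor, showed how far probes of a gene can part. The probe of the fit, A_52_P371237, ranged from -3.23 to -1.83 in untreated tumours and from -2.78 to -2.37 in the CTL arm, and it gave -0.04 ± 0.28 for CTL against untreated tumours (limma adjusted p 0.932). A_51_P469285, the probe at chr8:131388840-131388899, gave 0.53 (adjusted p 0.0787 over all probes). A_52_P174942 (mm8, chr8:131246199-131246258) was well above background on 5 arrays and on no untreated array, so it passed the filter through the arms where it is high, and its values are given with no test. It was at -4.44, -4.78, -4.74 and -4.64 in untreated tumours and at -4.32, -3.69, -3.33 and -3.86 in the CTL arm on days 1, 3, 5 and 7. It was at -3.56, -3.52 and -4.02 with IgG and at -4.47, -4.36 and -4.38 with anti-IFNg. From day 3 its CTL and IgG arrays lay above all untreated and anti-IFNg arrays. With the probes averaged, this probe among them, Nrp1 was 0.53 higher in the CTL arm, a value also given with no test. The sign of the CTL difference thus depended on the probe taken for Nrp1, with -0.04 for the probe of the fit.

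**Figure D4:**
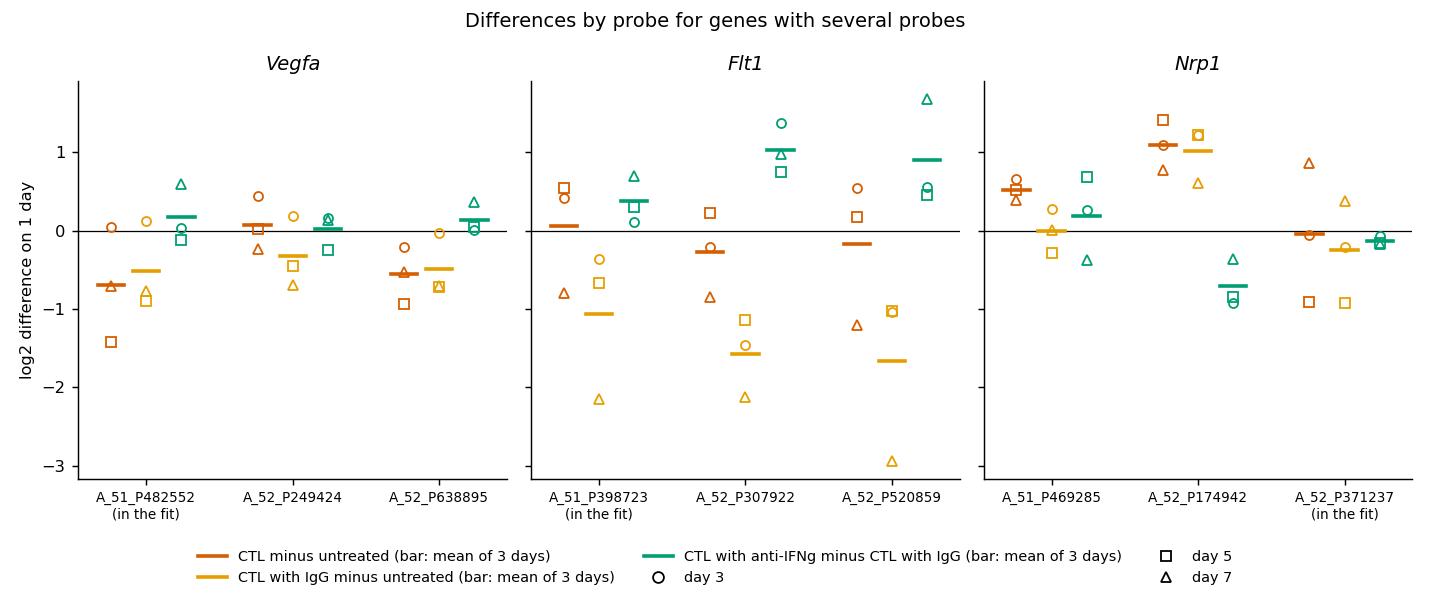
Same-day log2 differences (y axis) for the 3 probes each of Vegfa, Flt1 and Nrp1 that passed the filter (x axis), in 3 comparisons; symbols are days 3, 5 and 7 and bars their mean. The 3 Flt1 bars of the IgG arm lie from -1.67 to -1.06, and the Nrp1 bars of the CTL arm from -0.04 to 1.10.

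Tek, the angiopoietin receptor, was well above background on 9 arrays. It was at -4.00, -4.05, -4.41 and -3.45 in untreated tumours and at -4.04, -3.57, -3.52 and -3.71 in the CTL arm. With IgG it was at -3.94, -3.80 and -3.23, and with anti-IFNg at -3.63, -4.17 and -4.11. All arms overlapped, and the differences ran from -0.31 to 0.37 with an SE of 0.25 (lowest limma adjusted p 0.288). The highest, for CTL against untreated tumours, was 0.20 without the CTL array of day 5. Its other probe and that of Tie1 stayed at background on all 14 arrays, so the Tie receptors could be followed only through a dim Tek probe.

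The control antibody arm and the CTL arm differ in the injected IgG, in the tumours pooled per array (3 against 4) and in the place on the slide. These factors cannot be told apart. Between them 0 of 9 members passed in limma (2 had an unadjusted p under 0.05), where 0.0117% of genes did. For Kdr the fitted difference was -1.17 ± 0.24 (unadjusted p 0.0012, adjusted p 0.191), where the IgG values are at background and give a bound of at least 1.87-fold lower, and Flt1 differed by -1.11 ± 0.30 (unadjusted p 0.00627, adjusted p 0.196). Both lay wholly below the CTL arm on days 3, 5 and 7, as did Nrp1 and 8.73% of all genes. On these arrays the 4 measured keratinocyte genes were also below the CTL arm with IgG, at a median of -1.16. The 5 fibroblast genes were so at a median of -1.07, and no gene of either list passed. In the CTL arm 3 of the 4 keratinocyte genes had risen over untreated tumours, as 10.1% of all genes had. Their part in the result was not tested.

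On day 1 the members of the CTL and untreated tumours differed by -0.20 to 0.25. Angpt2 differed by -0.05 and Kdr by -0.19 on that day. Whether the CTL difference of days 3 to 7 departed from that of day 1 was tested over all 14 arrays with an interaction term, which 1.02% of genes and 0 of 9 members passed (1 member, Angpt2, had an unadjusted p under 0.05). For Angpt2 the change was -0.88 ± 0.24 (limma, unadjusted p 0.00618, adjusted p 0.163) and for Kdr -0.77 ± 0.48 (adjusted p 0.503). Day 1 is a single pair of arrays, assumed to vary like the others.

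The promoters of both VEGF-A receptors are printed because Kdr and Flt1 are the receptors that passed the test in at least 1 comparison. Shown are the 250 bases before each gene start, from RefSeq on GRCm38.p6, 5′ to 3′ on the coding strand; capitals mark the hexamers CCGGAA and AGGAAG, on either strand, which hold the core bound by ETS factors, a family known for endothelial genes. Of the 10 members, 9 have an entry in the promoter table, and Angpt2 has none.
Kdr, chr5:75978456-75978705, minus strand: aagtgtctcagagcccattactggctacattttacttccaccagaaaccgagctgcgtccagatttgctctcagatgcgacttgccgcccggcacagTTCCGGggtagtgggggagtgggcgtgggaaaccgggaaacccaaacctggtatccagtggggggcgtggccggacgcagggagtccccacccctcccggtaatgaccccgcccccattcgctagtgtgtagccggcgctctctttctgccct
Flt1, chr5:147726012-147726261, minus strand: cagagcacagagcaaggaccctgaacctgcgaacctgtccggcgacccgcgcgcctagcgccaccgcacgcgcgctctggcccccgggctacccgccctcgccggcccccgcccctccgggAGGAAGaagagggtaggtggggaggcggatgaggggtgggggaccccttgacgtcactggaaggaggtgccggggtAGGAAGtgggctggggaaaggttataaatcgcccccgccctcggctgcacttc
The Kdr window is 61.6% G and C and holds CCGGAA once, with its first base at -153 from the gene start, as 12.03% of 32851 promoter windows do at least once. The Flt1 window is 70.4% G and C and holds AGGAAG at -129 and -53 (29.485% of windows), the cAMP response element letters TGACGTCA at -81 (1.546%), and TATAAA at -31 (12.368%). GGGCGG, the letters bound by Sp factors, occurs 2 times in the Kdr window and 3 times in that of Flt1 (32.742% of windows). TTCNNNGAA, the letters of a gamma-activated site, occurs in no member window (7.02% of all). Both strands were searched, both hexamers share the letters GGAA, and a match is a description of letters, not of a site in use.

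Of 10 further VEGF and angiopoietin pathway genes on the array, 5 were measured, and 2 of the 5 passed in each of the 3 comparisons that called members, where 31.5%, 18.6% and 12.5% of all genes passed. Ptprb (VE-PTP, the phosphatase of Tie2) fell in the CTL arm, -1.07 ± 0.22, and in the IgG arm, -1.61 ± 0.22, and was 0.99 ± 0.22 higher with anti-IFNg than with IgG. Plxnd1, a semaphorin receptor of endothelial cells, gave -0.76 ± 0.16, -0.78 ± 0.16 and 0.74 ± 0.16. These 6 values had a limma adjusted p under 0.05. With all 14 arrays both IgG calls were kept, and the calls for CTL and for anti-IFNg against IgG were lost, with an adjusted p of 0.0558 and 0.0698 for Ptprb and of 0.0505 and 0.0631 for Plxnd1. No call of anti-IFNg against IgG in the lists that follow was kept with all 14 arrays either, a setting under which 0.0117% of all genes passed. Vegfb, Nrp2 and Sema3f passed in none of these comparisons.

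Of 14 measured genes of tip cells and Notch signalling, through which VEGF shapes sprouts, 7 fell and 1 rose in the CTL arm, and 12 fell and 1 rose with IgG. With anti-IFNg against IgG 4 were higher and 1 lower. Over all genes, 31.5%, 18.6% and 12.5% passed in these 3 comparisons. Of the 8 CTL calls, 4 were kept without the CTL array of day 5 and 2 with all 14 arrays, and of the 13 IgG calls 7 were kept with all 14. Their medians were -0.69, -1.07 and 0.48. Esm1, a tip cell product induced by VEGF, had the smallest p of the list in all 3: -2.08 ± 0.33, -2.85 ± 0.33 and 2.15 ± 0.33. Unc5b (-1.52 ± 0.24) and Notch4 (-1.20 ± 0.20) also fell with IgG. Notch1, which T cells express too, rose at least 3.17-fold in the CTL arm and at least 2.20-fold with IgG, and was at least 2.11-fold lower with anti-IFNg than with IgG.

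Of 16 measured genes of endothelial identity, 5 fell and 1 rose in the CTL arm, where 31.5% of all genes passed. With IgG 8 fell and 1 rose, where 18.6% passed. None passed with anti-IFNg against untreated tumours, where only 0.159% of all genes did. With anti-IFNg against IgG 7 were higher and 1 lower, where 12.5% of all genes passed. Of the 6 CTL calls, 4 were kept without the CTL array of day 5 and 5 with all 14 arrays, and of the 9 IgG calls 7 were kept with all 14. The medians were -0.64, -1.17, -0.57 and 0.54. Emcn, an endothelial sialomucin, was at -1.38 ± 0.17 in the CTL arm, -1.79 ± 0.17 with IgG and 1.05 ± 0.17 for anti-IFNg against IgG. Esam and Robo4, an adhesion molecule and a guidance receptor of endothelial cells, fell with IgG by 1.47 and 1.87, as differences of -1.47 ± 0.18 and -1.87 ± 0.24. Icam2, which leukocytes carry as well, moved the other way, 0.92 ± 0.15 in the CTL arm. Pecam1, Eng and Vwf, also endothelial, passed in none of these comparisons. The mean log2 level of the list ran from -1.06 to -0.55 in untreated tumours, -1.27 to -1.17 in the CTL arm, -1.88 to -1.59 with IgG and -1.32 to -1.08 with anti-IFNg on days 3, 5 and 7. Its summed level, in multiples of the 75th percentile, was 19.6 to 23.7, 17.8 to 22.8, 16.9 to 20.1 and 20.0 to 22.1 in these arms, with all 4 ranges overlapping. Cdh5 and Erg, well above background on all 3 untreated arrays of those days, were so on none of the IgG arrays, and nor was Rgs5 of the pericyte list. By the mean log2 level the IgG arrays lay below all others and the untreated arrays above them, whereas by the summed level, which the brightest genes set, the arms overlapped. The part of these genes in the differences of Kdr and Angpt2 was not tested.

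**Figure D5:**
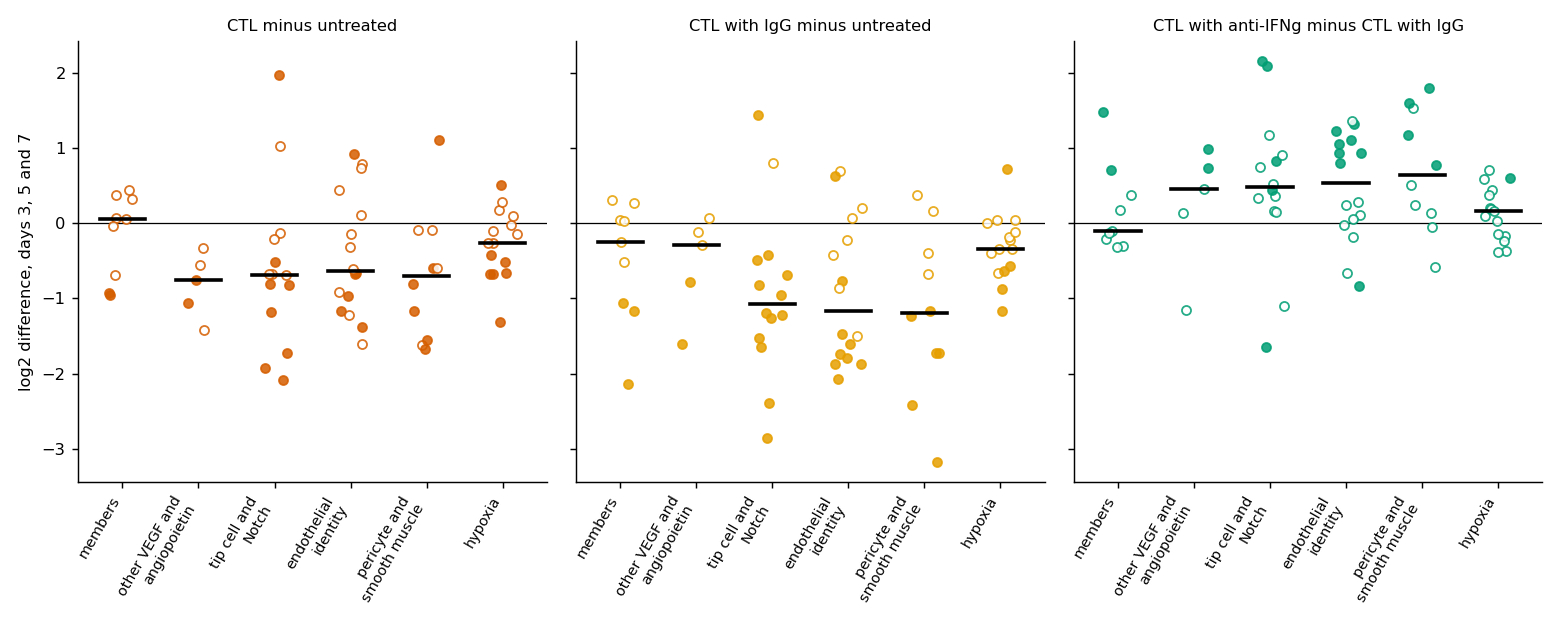
Log2 differences over days 3, 5 and 7 (y axis) of single genes (points) in the members and 5 related lists (x axis), in 3 comparisons; filled points passed the limma test and black bars are list medians. The medians of the tip cell, endothelial and pericyte lists lie from -1.20 to -0.64 in the CTL and IgG arms and from 0.48 to 0.65 for anti-IFNg against IgG.

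Of 10 measured pericyte and smooth muscle genes, which mark the cells around vessels, 5 fell and 1 rose in the CTL arm, 6 fell with IgG, and 4 were higher with anti-IFNg than with IgG, with medians of -0.70, -1.20 and 0.65. Of the 6 CTL calls, 4 were kept without the CTL array of day 5 and 2 with all 14 arrays, which kept all 6 IgG calls. The summed level of the list was 26.0 to 28.1 in untreated tumours, 25.7 to 35.4 in the CTL arm, 23.5 to 27.3 with IgG and 23.2 to 25.2 with anti-IFNg, an order that differs from that of the medians. Cspg4, the NG2 proteoglycan of pericytes, was at -1.56 ± 0.12, -1.73 ± 0.12 and 1.60 ± 0.12. Kcnj8, a pericyte potassium channel, was at -1.67 ± 0.31, -2.42 ± 0.31 and 1.80 ± 0.31. Other genes of the list did not follow them. Tagln rose in the CTL arm, 1.11 ± 0.34 (limma adjusted p 0.0393), a call lost without the CTL array of day 5 (adjusted p 0.147). Acta2 and Myh11 passed in none of the 3 comparisons, and Pdgfrb passed only with IgG, -1.16 ± 0.27. The summed level of 10 macrophage genes was 23.0 to 25.4 in untreated tumours, 94.1 to 126 in the CTL arm, 66.9 to 130 with IgG and 38.7 to 68.0 with anti-IFNg. That of 8 T cell genes was 1.61 to 2.41, 6.26 to 13.0, 4.58 to 10.9 and 2.43 to 4.23 in these arms. Their part in the results on Kdr and Angpt2 was not tested.

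The 10 interferon gamma response genes checked the antibody. All 10 rose in the CTL and IgG arms, at medians of 4.90 and 5.15, and all 10 were lower with anti-IFNg than with IgG, at a median of -4.03. Of all genes, 10.1% rose in the CTL arm and 7.47% with IgG, and 5.93% were lower with anti-IFNg than with IgG. The calls in the CTL and IgG arms were kept with all 14 arrays. With anti-IFNg against untreated tumours 0 of 10 passed, where only 0.159% of all genes did, so this does not show that the response was absent. All 10 lay above untreated tumours there, by 0.25 to 1.30, at a median of 0.87. Psmb8, Psmb9, Ciita and Tap1 had an unadjusted limma p under 0.05, and the others did not. Genes of the response to low oxygen, which induces Vegfa, gave smaller medians (-0.26, -0.34 and 0.16). The list holds the transcription factors Hif1a and Epas1 beside genes that low oxygen induces. Of 15 measured, 6 fell and 1 rose in the CTL arm, and 4 fell and 1 rose with IgG. Only Pdk1 was higher with anti-IFNg than with IgG (0.60 ± 0.15). Of all genes, 31.5%, 18.6% and 12.5% passed in these 3 comparisons. Ankrd37 fell in the CTL arm, -1.31 ± 0.18, as did Pdk1, -0.66 ± 0.15, and Ldha, -0.42 ± 0.09. Of the 7 CTL calls, 3 were kept without the CTL array of day 5, which lost that of Ldha (adjusted p 0.0528), and 1 with all 14 arrays. Hif1a, a factor of the response rather than a target, rose in the IgG arm, 0.72 ± 0.12.

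Over the 14 arrays the genes most like Vegfa were Hk2, a glycolytic enzyme (Pearson's r 0.902), Bhlhe40 (0.87), F3, the tissue factor gene (0.864), Rnf19a (0.86) and Ibrdc1 (0.852). The 10 genes most like the mean of the measured receptors Kdr, Flt1, Flt4 and Tek had an r of 0.893 to 0.945, and among them were Pdgfrb, the PDGF receptor of pericytes (0.918), Ltbp4 (0.904), Mmrn2, an endothelial matrix protein (0.897), and Ptprd (0.894). Angpt2 and Kdr had an r of 0.917 with each other. Arms and days form the points of these correlations and the arrays are shared, so the values are a description.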

How the data were processed

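Tumour RNA was measured on 14 single-colour Agilent arrays. Per the file headers, the authors' scanner output is linear spot intensity with background subtracted, from Feature Extraction 9.5.3.1 (9.5 in the processing notes). The authors' deposited log2 table equals the log2 intensity less a constant per array that places the 75th percentile at about 0. Here log2 processed intensity minus the 75th percentile of 43379 non-control spots was used. Spots of a probe were averaged without outlier-marked spots. A probe is called well above background when at least 50% of its spots are, and was kept when it was so on at least 3 arrays. The probe with the highest mean stood for a gene. Accessions named 24375 of 41174 probes through the RefSeq gene table. Probe coordinates are mm8, per the file headers.

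Limma 3.58.1 in R 4.3.3 fitted arm and day to the 12 arrays of days 3, 5 and 7, with Benjamini-Hochberg adjustment over 17031 genes, a two-sided threshold of 0.05 and 6 residual degrees of freedom. The numbers of days pair the arms: of 18 same-day pairs, 12 had deviations from the arm means that correlated above 0.1 (median 0.129, range -0.044 to 0.510), and a day equals a slide, so day is kept as a term. The members and gene lists were chosen with earlier results of these data known. From each list, up to 3 genes that passed with the smallest p are named, and others named beside them were chosen after their values were seen. Pooled tumours on different days are the only replication, and the number of arrays limits the precision.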

Additional observations from a re-analysis of the deposited data

How the results depend on the processing

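Of 675 values of the members under alternatives, 607 kept their direction and side of the threshold. In all, 42 changed direction, 26 lost a call and 2 gained one. Kdr in the CTL arm with normexp both turned and lost its call, and Nrp1 in the CTL arm with averaged probes both turned and gained one. The Nrp1 average holds a probe that passed the filter through the arms where it is high, so that gained call is not read as a result. The cause of these changes was not tested. Scaling by the array median moved the median of all genes in the CTL comparison from -0.10 to -0.24, and Angpt2 and Kdr kept their calls under it.

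Counts of all genes past the threshold differed between settings. For CTL against untreated tumours 5363 genes passed, and 1823 with all 14 arrays, 3296 with no filter, 3099 without the CTL array of day 5, 836 with only 2 arms and 660 to 5112 when a day was left out. For IgG against untreated tumours 3174 passed, and 1706, 2005 and 1056 with all arrays, no filter and 2 arms, 938 with normexp and 522 to 2702 without a day. For anti-IFNg against IgG 2136 passed, and 2, 1144, 911, 645 and 50 to 1376 in the same order. For anti-IFNg against untreated tumours 27 passed, and 0 with all arrays or 2 arms, 10 with no filter, 2 with normexp, 54 with the array median, 13 with probes well above background on every array and 1 to 18 without a day. For IgG against CTL 2 passed, and 4 with all arrays, 0 with normexp, 2 arms or the stricter filter, and 0 to 2 without a day. For the change from day 1, 173 passed, and 43 with normexp and 4 to 295 without a day.

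Without the replicate block of day, paired arms being ignored, 0 genes passed for anti-IFNg against untreated tumours and 4 for IgG against CTL, and the Flt1 call with IgG was lost (adjusted p 0.0731).

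For CTL against untreated tumours, values turned with normexp for Vegfc (-0.034), Kdr (0.18) and Nrp1 (0.49), with the array median for Vegfc (-0.061) and Flt1 (-0.081), with averaged probes for Flt1 (-0.13) and Nrp1 (0.53), and without the CTL array of day 5 for Flt1 (-0.071) and Nrp1 (0.17). Leaving out a day gave -0.19 to 0.48 for Flt1 and -0.48 to 0.40 for Nrp1. With IgG, averaged probes gave 0.26 for Nrp1, and leaving out a day gave -0.0022 to 0.10 for Vegfc, -0.0099 to 0.062 for Flt4 and -0.56 to 0.091 for Nrp1. With anti-IFNg against untreated tumours, the array median gave 0.042 for Vegfc and 0.10 for Tek, averaged probes 0.044 for Nrp1, Tek was at 0.12 with quantile normalization and at 0.0062 with the values of the authors' table, and leaving out a day gave -0.11 to 0.14 for Pgf and -0.21 to 0.33 for Tek. Against IgG, the array median gave 0.0051 for Vegfc, and leaving out a day -0.040 to 0.32 for Vegfa.

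For IgG against CTL, Vegfa was at -0.0475 with averaged probes and -0.0076 without the CTL array of day 5, Vegfc at 0.070 with normexp and 0.10 with the array median, Pgf at 0.070 with the array median, and Tek at 0.094 with quantile normalization, 0.064 with the array median and 0.11 without the CTL array of day 5. Leaving out a day gave -0.12 to 0.051 for Vegfc, -0.12 to 0.051 for Pgf and -0.33 to 0.10 for Tek. For the change from day 1, normexp gave -0.041 for Vegfc and 0.33 for Kdr, the array median -0.0048 for Vegfc, and leaving out a day -0.45 to 0.23 for Flt1 and -0.29 to 0.60 for Nrp1. Flt4, Tek and the IgG values of Kdr lie near background, which limits what they can show.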

Other observations

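Of 5 measured genes listed for endothelial activation, Icam1, Vcam1 and Selplg rose in the CTL arm, where 31.5% of all genes passed. The rises were 2.84 ± 0.23, 2.99 ± 0.25 and 2.97 ± 0.18 (limma, adjusted p under 0.05). Cd34, an endothelial and progenitor surface protein, fell (-0.76 ± 0.22). With anti-IFNg against IgG the 3 genes were lower, at -2.06 ± 0.23, -1.76 ± 0.25 and -1.44 ± 0.18, and Cd34 was higher, at 1.21 ± 0.22. The Cd34 call of the CTL arm was lost without the CTL array of day 5 (adjusted p 0.101), and no call of anti-IFNg against IgG was kept with all 14 arrays. Selp, P-selectin, was dim and passed in neither comparison, at -0.06 ± 0.14 (limma adjusted p 0.745) and -0.47 ± 0.14 (adjusted p 0.0623). Selplg, the ligand of P-selectin, is chiefly a leukocyte gene, and Icam1 and Vcam1 are made by leukocytes too. In bulk RNA the cells in which the 3 genes rose cannot be told apart.

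Of 11 measured genes known to restrain angiogenesis, 2 rose and 1 fell in the CTL arm, in a comparison where 31.5% of all genes passed. Cxcl9, an interferon-induced chemokine, rose by 6.36 ± 0.72, Thbs1, thrombospondin-1, rose by 1.51 ± 0.36, and Serpinf1 fell (-0.73 ± 0.17). The Thbs1 call was lost without the CTL array of day 5 (adjusted p 0.0541), and 1 of the 3 calls was kept with all 14 arrays. With IgG 2 rose and 2 fell, where 18.6% of all genes passed. With anti-IFNg against IgG, where 12.5% passed, Cxcl9 (-4.92 ± 0.72) and Thbs1 were lower, the latter at least 3.20-fold.

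Chosen after the values were seen, the 10 genes most like Kdr over the 14 arrays began with Ptprb (Pearson's r 0.958), Esam (0.955) and Lrig3 (0.954). Then came Igfbp3 (0.9529), Pcdh12 (0.9525), Mmrn2 (0.951), Serinc5 (0.951), Gpc4 (0.949), Cd34 (0.947) and Lpgat1 (0.944). The points are arms and days on shared arrays.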
